A study of Bos taurus with 2 samples.

Results

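Cyclins are the regulatory subunits that switch on the cyclin-dependent kinases (CDKs), and each family acts at its own stage of the cell cycle. D cyclins (CCND1, CCND2 and CCND3) partner CDK4 and CDK6 in G1 and link growth signals to the release of E2F. E cyclins (CCNE1 and CCNE2) partner CDK2 at the entry into S phase, cyclin A2 (CCNA2) acts in S phase and G2, and the B cyclins (CCNB1 and CCNB2) partner CDK1 in mitosis. In muscle, satellite cells leave quiescence, divide as myoblasts, and leave the cycle when they become MYOG-expressing myocytes. Cyclin D3 is known as the D cyclin that is kept in differentiating muscle cells, where cyclin D1 declines.

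These 8 genes were chosen by name from the 21867 genes of the feature list, and each was found in a single row (CCND1, ENSBTAG00000017514; CCND2, ENSBTAG00000016649; CCND3, ENSBTAG00000010106; CCNE1, ENSBTAG00000004735; CCNE2, ENSBTAG00000004906; CCNA2, ENSBTAG00000004943; CCNB1, ENSBTAG00000014239; CCNB2, ENSBTAG00000005269). The rule itself uses no measured value, although earlier results of these data were known. The cells were satellite cells isolated from the longissimus muscle of 1 Holstein bull calf aged 2 weeks and cultured for 1 week in medium with fetal bovine serum. A pair of droplet libraries of the same cells, called replicates 1 and 2, were sequenced, and molecules were counted by unique molecular identifiers (UMIs). There was 1 animal and no treatment, so the only groups are the 15 clusters of cells, and n = 2 stands for library preparations of the same cells.

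The libraries held 9939 and 9157 cells with a median of 14626 and 15206 UMIs per cell, and 27 barcodes occurred in both. Clusters 7, 13, 14 and 15 were shallow, with medians from 647 to 2513.5 UMIs per cell, and single values there rest on few molecules. Clusters 1 and 2 go by the name of myoblasts, clusters 3 and 12 of myocytes, clusters 4, 5 and 8 of satellite cells, and clusters 7 and 9 of fibro-adipogenic progenitors, and the other clusters have no name. As checks of the myocyte, progenitor and satellite cell names, only MYOG, PDGFRA, PAX7 and PAX3 are given here. Other markers of myocytes and progenitors are not given, so the progenitor name is checked by PDGFRA alone. For the myoblast names only MYOD1 in cluster 2 is given, further on, and the name of cluster 1 is left unchecked here. MYOG, the regulator of terminal myogenesis, stood at 18.6 UMIs per 10000 UMIs in cluster 12 and 6.68 in cluster 3, and PDGFRA, the progenitor marker, was highest in clusters 9 and 7. The satellite cell markers PAX7 and PAX3 were near 0 in every cluster, with 176 and 316 UMIs in all cells, so the satellite cell clusters are called by number. Of the glial, leukocyte and endothelial markers, FOXD3 and SOX10 had 0 UMIs, PTPRC had 1, CSF1R 14, CDH5 28, PECAM1 45 and CD68 580. The smooth muscle marker ACTA2 was abundant at 190636 UMIs, while MYH11 had 192. Of the pericyte markers, NOTCH3 had 10356 UMIs and MCAM 102.

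A level below is a gene's share of the UMIs of a cluster, in UMIs per 10000 UMIs, given as a mean with the SD over both libraries. It shows RNA per total RNA and not protein, and fewer cells with the RNA cannot be told apart from less RNA per cell. The shares of cells given further on do not settle this, since a lower level in every cell also lowers the share. In all cells, 18369 UMIs of CCND1, 27225 of CCND2 and 28052 of CCND3 were counted. For the later cyclins the totals were 17049 (CCNA2), 29042 (CCNB1) and 23949 (CCNB2). The E cyclins were sparse, with 2254 UMIs of CCNE1 and 2614 of CCNE2, which limits what can be seen of them.

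**Figure D1:**
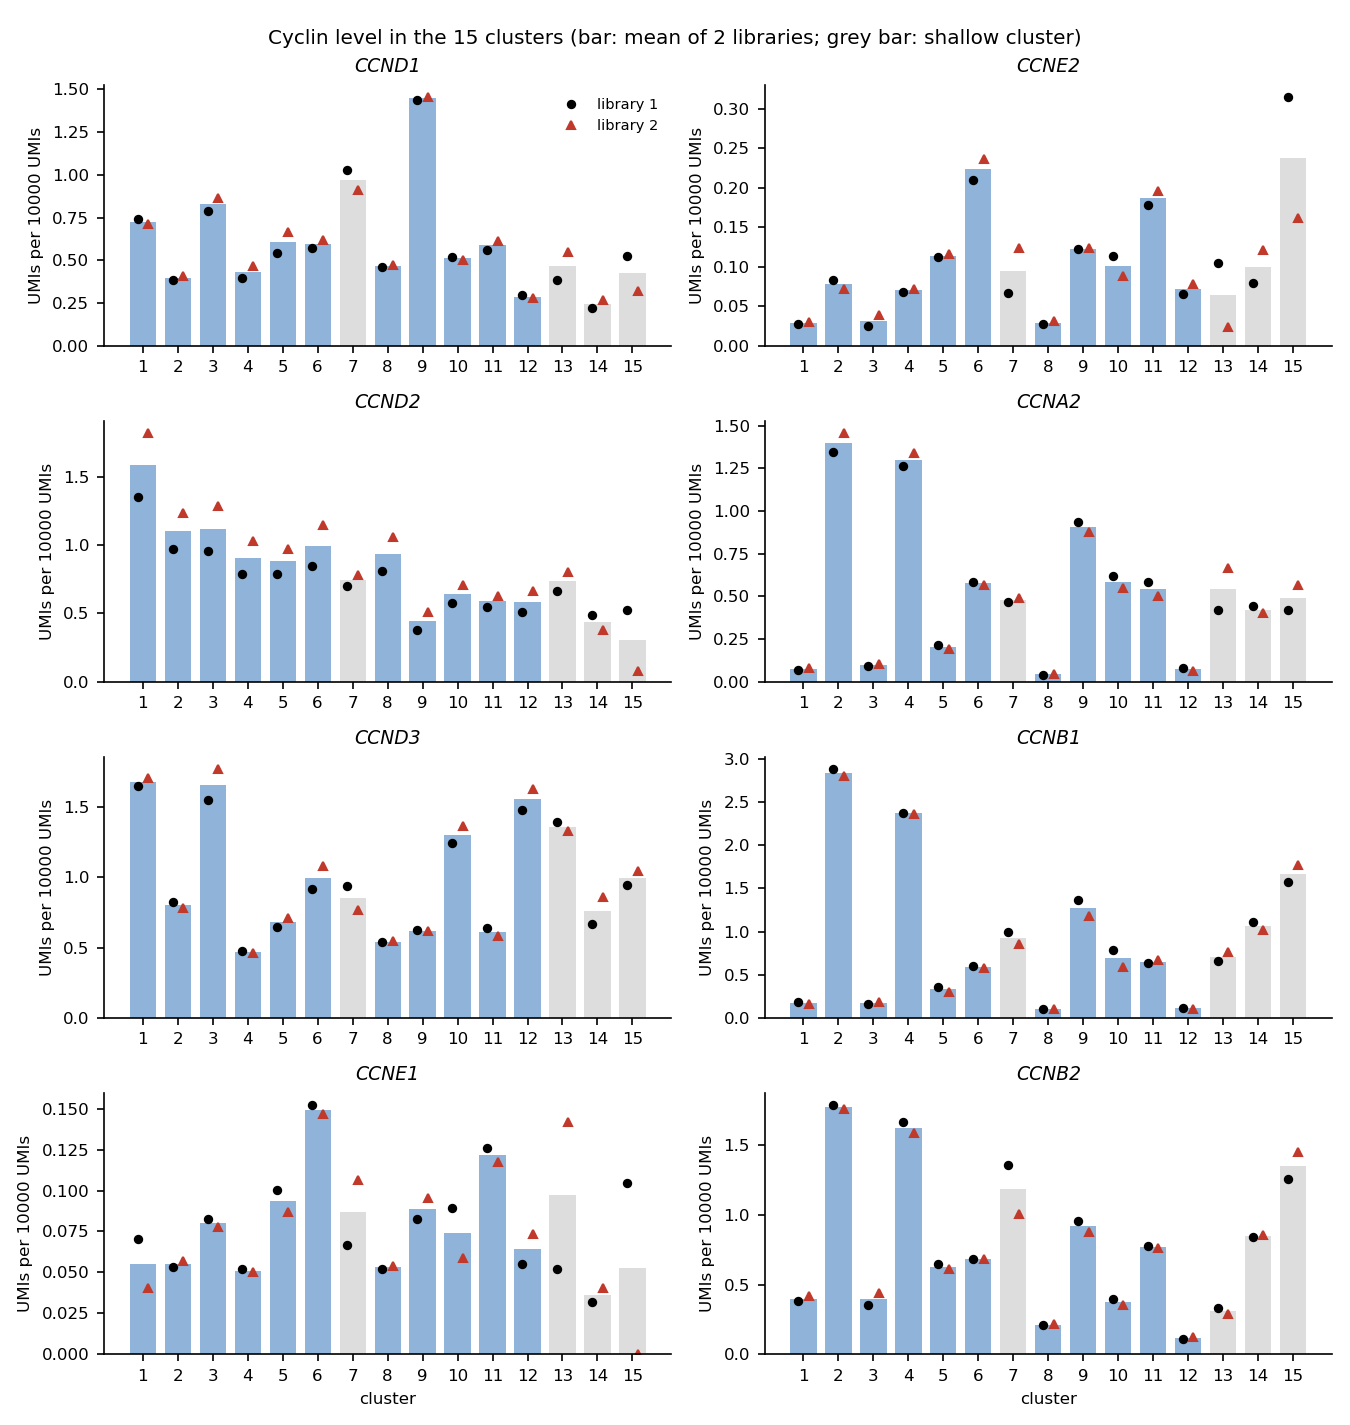
Level of each cyclin (y axis, UMIs per 10000 UMIs) in clusters 1 to 15 (x axis), with a point for each library, a bar for their mean, and grey bars for the 4 shallow clusters. CCNA2, CCNB1 and CCNB2 share their peak in clusters 2 and 4, CCNE1 and CCNE2 stand high in clusters 6 and 11, and each D cyclin has an order of its own, with CCND1 highest in cluster 9.

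The 3 D cyclins differed in where they were highest. CCND1 was highest in cluster 9, at 1.44 in replicate 1 and 1.46 in replicate 2, and no other cluster reached it. Next came cluster 7 (1.03 and 0.91), cluster 3 (0.79 and 0.86) and cluster 1 (0.74 and 0.71), in that order without overlap between the libraries. Cluster 7 is shallow, with 203 UMIs of CCND1. Its place holds for shares of UMIs only. The scaling used in the tests below would lower it against cluster 3 (factors of 1.37 and 1.35 against 0.885 and 0.903). Among the 11 clusters that were not shallow, CCND1 was lowest in cluster 12, at 0.29 and 0.28, which is 5.08 times below cluster 9. Of the 2 clusters named myocytes, CCND1 therefore stood high in cluster 3 and was the lowest of the deeper clusters in cluster 12.

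CCND2 was highest in cluster 1, at 1.35 in replicate 1 and 1.82 in replicate 2, and lowest among the deeper clusters in cluster 9, at 0.38 and 0.51. Its libraries differed in level, and below cluster 1 most neighbours in its order overlapped. From cluster 3 down to cluster 5 (3, 2, 6, 8, 4, 5) the ranges of all neighbours overlapped, but these ranges include the difference between the libraries. Within each library the order 2, 6, 8, 4 was the same. These clusters had 0.970, 0.845, 0.809 and 0.785 in replicate 1, and 1.24, 1.15, 1.06 and 1.03 in replicate 2. Clusters 3 and 2 changed places between the libraries, and so did clusters 4 and 5. CCND3 was high in clusters 1 (1.65 and 1.71), 3 (1.55 and 1.77) and 12 (1.48 and 1.63), and the ranges of these neighbours overlapped. Clusters 13 and 10, which have no name, came next, at means of 1.36 and 1.30. CCND3 was lowest in cluster 4, at 0.48 and 0.46.

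The make-up of the D family therefore changed between clusters, as far as UMIs, which are counted once per molecule and not per length, allow shares of a family to be set side by side. CCND1 gave 57.6% of the D cyclin UMIs of cluster 9 (58.9% and 56.4% in the libraries) and 11.8% of those of cluster 12. CCND3 gave 64.2% in cluster 12 and 53.1% in cluster 10, against 46.1% in cluster 3 and 26.3% in cluster 4. CCND2 gave the largest part in clusters 4 (49.9%), 8 (47.9%) and 2 (47.7%), and 17.7% in cluster 9.

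The E cyclins peaked together in clusters 6 and 11. CCNE1 was at 0.152 and 0.147 in cluster 6 and at 0.126 and 0.118 in cluster 11, against 0.052 and 0.050 in cluster 4. CCNE2 was at 0.210 and 0.236 in cluster 6 and at 0.178 and 0.195 in cluster 11, against 0.028 and 0.029 in cluster 1. These clusters held 12.7% of the cells and 16.5% of all UMIs, but 29.2% of the CCNE1 UMIs and 37.8% of the CCNE2 UMIs. Cluster 15 had a mean of 0.238 for CCNE2, which rests on 5 UMIs. Below cluster 11 nearly all neighbours in the order of CCNE1 overlapped.

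Cyclin A2 and the B cyclins were concentrated in clusters 2 and 4. These clusters held 20.4% of the cells and 26.2% of all UMIs, but 59.0% of the CCNA2 UMIs, 67.0% of the CCNB1 UMIs and 52.9% of the CCNB2 UMIs. CCNB1 reached 2.88 and 2.80 in cluster 2 and 2.38 and 2.36 in cluster 4, and fell to 0.105 and 0.099 in cluster 8. CCNA2 was at 1.34 and 1.46 in cluster 2 and 1.26 and 1.34 in cluster 4, and at 0.040 and 0.048 in cluster 8. For CCNB2 the values were 1.79 and 1.76 in cluster 2, 1.67 and 1.59 in cluster 4, and 0.109 and 0.120 in cluster 12, its lowest cluster. Cluster 9 came next among the deeper clusters for all 3 genes, with CCNB1 at 1.28 ± 0.13. The highest of the 11 deeper clusters exceeded the lowest 32.0 times for CCNA2, 27.8 times for CCNB1 and 15.5 times for CCNB2, but only 7.77 times for CCNE2, 3.56 times for CCND3, 3.55 times for CCND2 and 2.93 times for CCNE1.

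Levels over the 15 clusters followed each other closely for CCNA2 and CCNB1 (Pearson r = 0.95 of log2 levels, across clusters that share libraries, given as a description). The r was 0.88 for CCNB1 with CCNB2, and −0.52 for CCND3 with CCNB2. CCNE1 and CCNE2 had an r of 0.38 over all clusters and 0.78 over the 11 deeper ones. Among 10054 genes with at least 500 UMIs, those most like CCNA2 were CDCA2, CEP55 and TTK, at r = 0.99, 0.99 and 0.98. CCNB1 was closest to PIMREG, NEK2 and AURKB (0.99, 0.98 and 0.97, with NEK2 at 0.71 in replicate 1 alone) and CCNB2 to NUF2, PARPBP and CDC20 (0.98, 0.96 and 0.96). CDC20 is an activator of the complex that marks B cyclins for destruction, TTK and AURKB are kinases of mitosis, and NUF2 is part of the kinetochore.

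The D and E cyclins had looser neighbours. CCND3 was closest to ECHDC1, RNF10 and NNAT (r = 0.89, 0.88 and 0.88), and CCND1 to DPYSL3, NCOA4 and FBLN5 (0.81, 0.80 and 0.79). CCND2 was closest to SH3D19, FKBP15 and C21H14orf132 (0.83, 0.82 and 0.81), but at 0.49, 0.36 and 0.38 in replicate 1 and 0.95, 0.56 and 0.74 in replicate 2. NCOA4 was likewise at 0.46 with CCND1 in replicate 1. ARL6IP6 and RAD9A were among the genes closest to CCNE2 (0.91 and 0.88), and CCNE1 was closest to INTS7, SQLE and POLR1A (0.85, 0.75 and 0.74). In a single library these values were only 0.44, 0.38 and 0.40 (replicate 1) and 0.52, 0.41 and 0.53 (replicate 2). For CCND1, CCND2 and CCND3 none of these 3 genes stayed among the closest 3 when the shallow clusters were left out. Of their closest 3, CCNE1 then kept only INTS7 and CCNB1 only NEK2, so that AURKB dropped out. CCNA2 lost CEP55, CCNB2 lost CDC20, and CCNE2 lost ARL6IP6 and RAD9A.

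The cyclins were next compared along the order 8, 1, 3, 12, which runs from cluster 8 through myoblasts to myocytes. UMIs were summed per library and cluster, and edgeR's quasi-likelihood test was run on all 12223 genes that passed the filter on low counts, with p-values adjusted by Benjamini and Hochberg and a call at an adjusted p under 0.05. All 8 cyclins passed the filter. The same counts had been used to make the clusters. A call therefore describes a difference beyond the spread of library preparation and is not independent evidence of one.

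From cluster 8 to cluster 1, the D cyclins and the later cyclins were all higher, and 6 of 8 cyclins passed the test, against 30.4% of all genes. CCND3 went from 0.538 and 0.546 in cluster 8 to 1.65 and 1.71 in cluster 1, a log2 fold change of 1.67 ± 0.09 (SE; edgeR adjusted p = 2.2e-13). The libraries of the 2 clusters did not overlap. CCND2 and CCND1 rose by 0.80 ± 0.18 and 0.68 ± 0.09. CCNB2, CCNA2 and CCNB1 rose by 0.95 ± 0.10, 0.80 ± 0.17 and 0.79 ± 0.14, from levels that remained far below those of clusters 2 and 4. CCNE1 and CCNE2 were not called, with log2 fold changes of 0.10 ± 0.23 and 0.03 ± 0.25. SKP2, the ubiquitin ligase subunit that targets the CDK inhibitor p27, rose by 2.09 ± 0.20, with 4 of 12 genes of cyclin degradation higher and 0 lower. CKS2, a small CDK-binding protein, rose by 0.38 ± 0.08 and CDK2 fell by 0.49, as the only 2 of 12 kinases and regulators that passed. Of 16 other cyclins tested, 2 were higher and 3 lower, CCNO by 2.00 ± 0.42.

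Cluster 3 differed little from cluster 1 in its cyclins, although MYOG was much higher. The 4 calls of 8 compare with 35.2% of all genes, and all were small. CCNA2 rose by 0.44 ± 0.13 (edgeR adjusted p = 0.0084), from 0.070 and 0.078 to 0.092 and 0.105. CCND2 was lower by 0.47 ± 0.17 (adjusted p = 0.035) and CCND1 higher by 0.22 ± 0.08 (adjusted p = 0.045), and DESeq2 called neither (adjusted p = 0.0534 and 0.124). CCNE1 was higher by 0.57 ± 0.20, but by 0.27 in replicate 1 alone and 0.98 in replicate 2 alone, and a fit of only these 4 sums did not call it (adjusted p = 0.101). CCND1 was likewise higher by 0.13 in replicate 1 alone. CCND3 (0.01 ± 0.08), CCNB1 (0.02 ± 0.12) and CCNB2 (0.02 ± 0.09) did not pass. Among the other cyclins, 4 were higher and 2 lower, with CCNO, CCNJ and CCNK up by 1.07, 0.93 and 0.45. Of the kinases and regulators, 1 was higher and 3 were lower, among them PKMYT1, an inhibitory kinase of CDK1, by 0.50. Of the degradation genes, 5 were higher and 1 lower, with UBE2S up by 0.47 and SKP2 by 0.45.

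Between the 2 clusters named myocytes, the D cyclins parted. CCND1 dropped from 0.789 and 0.864 in cluster 3 to 0.294 and 0.276 in cluster 12, and its log2 fold change was −1.45 ± 0.10 (edgeR adjusted p = 2.6e-11). CCND2 dropped from 0.954 and 1.28 to 0.509 and 0.661 (−0.85 ± 0.19; adjusted p = 0.0013). CCND3 was at 1.55 and 1.77 in cluster 3 and at 1.48 and 1.63 in cluster 12, which overlap (−0.01 ± 0.08; adjusted p = 0.96). In each library the unscaled level of CCND3 was also slightly lower in cluster 12 (log2 fold changes of −0.07 and −0.12), far less than that of CCND1 (−1.42 and −1.64).

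In the same comparison CCNB2 was lower by 1.70 ± 0.12 and CCNB1 by 0.57 ± 0.15. CCNE2 went the other way, from 0.025 and 0.038 to 0.065 and 0.078, a log2 fold change of 1.28 ± 0.22 (adjusted p = 4.8e-05) that rests on 110 UMIs in cluster 3 and 89 in cluster 12. CCNA2 was not called (−0.37 ± 0.16; adjusted p = 0.086), but was when the 8% of cells with the highest doublet scores were left out (−0.78; adjusted p = 0.00245), which took its level in cluster 12 from 0.072 to 0.047. CCNB1 then fell by 0.95. In all, 5 of 8 cyclins passed, against 31.5% of all genes. CDK4, the kinase partner of the D cyclins, fell by 0.67, CDK2 by 0.83 and CKS2 by 0.25, and none of the 12 kinases and regulators was higher. CDC20 fell by 1.34, and CUL3, a ubiquitin ligase scaffold, rose by 0.20. Of the other cyclins 4 were lower and 0 higher, including CCNO (−0.96), CCNC (−0.34) and CCNI (−0.33).

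**Figure D2:**
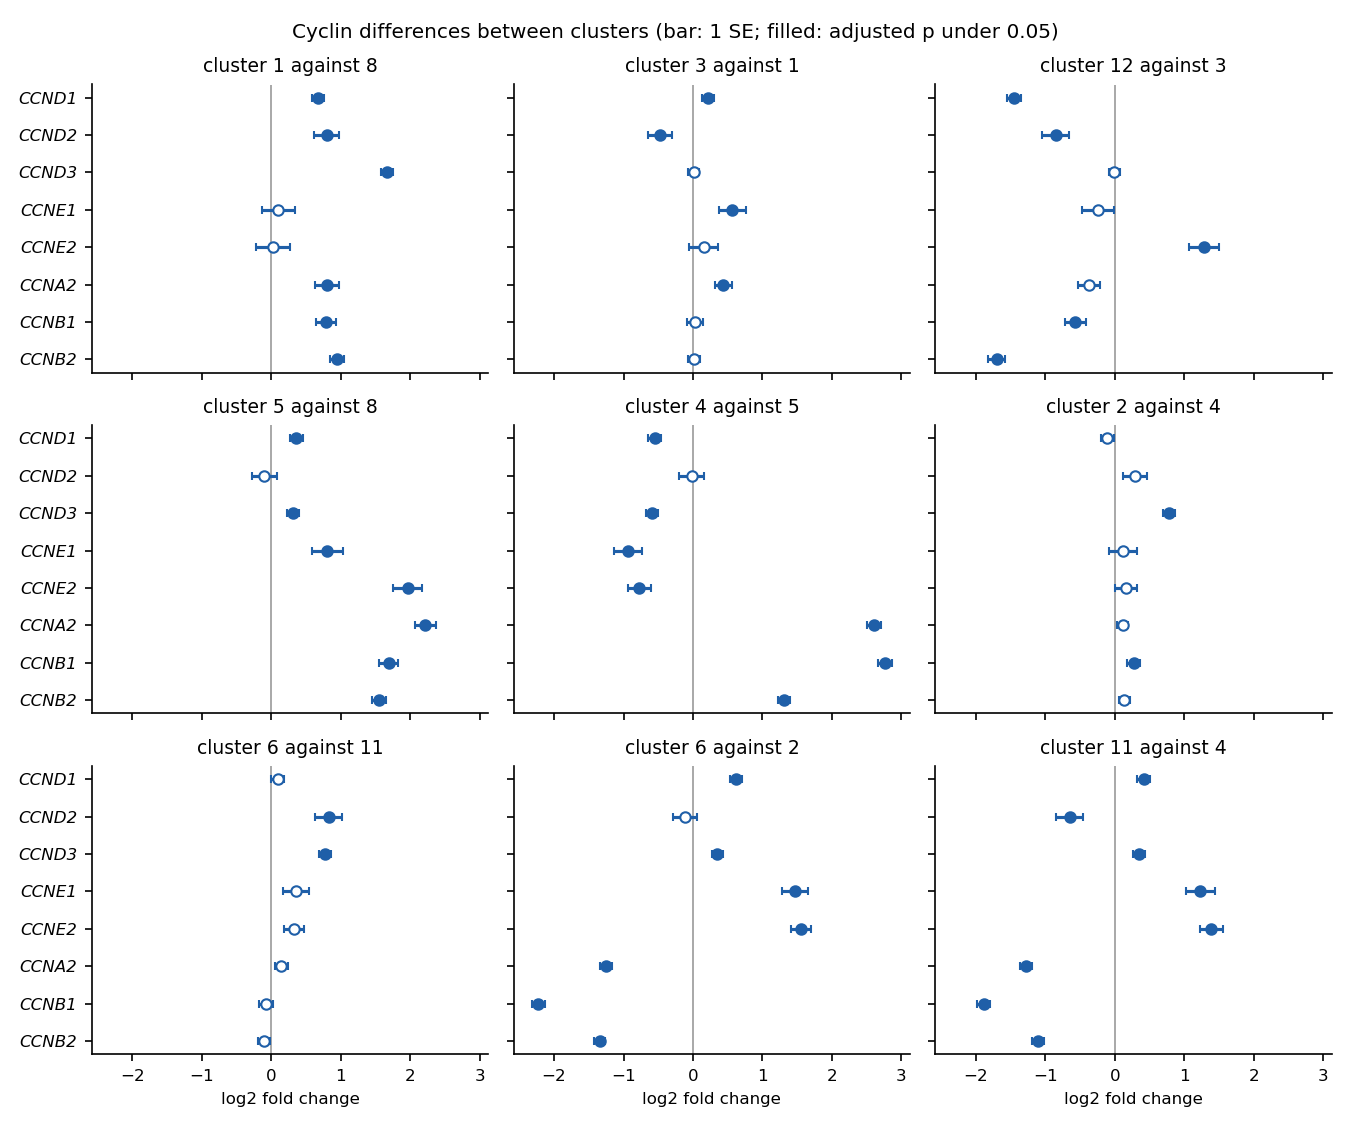
Log2 fold change of each cyclin (x axis) in 9 comparisons of clusters, with 1 SE as bars and filled points for an adjusted p under 0.05 in edgeR. CCND3 is at 0 between clusters 12 and 3 where CCND1 is at −1.45, and in both comparisons of an S phase with a G2/M cluster (6 against 2, 11 against 4) the E cyclins lie right of 0 and CCNA2, CCNB1 and CCNB2 left of it.

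The second order, 8, 5, 4, 2, passed through the clusters with more of the S phase and G2/M genes. From cluster 8 to cluster 5, 7 of 8 cyclins rose, against 24.5% of all genes called either way. The median absolute log2 fold change was 1.18 for the cyclins and 0.249 for all genes. CCNA2 went from 0.040 and 0.048 to 0.217 and 0.193 (2.22 ± 0.15), CCNE2 from 0.027 and 0.031 to 0.111 and 0.117 (1.96 ± 0.21), and CCNB1 and CCNB2 rose by 1.69 ± 0.14 and 1.55 ± 0.10. The rises of CCNE1 (0.81 ± 0.22), CCND1 (0.36 ± 0.09) and CCND3 (0.31 ± 0.09) were smaller, and CCND2 was not called (−0.10 ± 0.18). In replicate 1 alone CCND1 rose by 0.23. With each cell given to the cluster whose profile suited it best, CCNE1 (0.53; adjusted p = 0.0565) and CCND3 (0.20; adjusted p = 0.0645) were lost. Of the kinases and regulators 9 of 12 were higher and 0 lower, with PKMYT1 at 2.12, CDK1 at 1.46 and CDK2 at 1.41. Of the degradation genes 6 were higher, led by FBXO5 at 2.91, an inhibitor of cyclin destruction, and CDC20 at 2.05. The other cyclins split, with 4 higher, CCNO (1.85) and CCNB3 (1.11) among them, and 2 lower, CCNI (−0.41) among them.

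From cluster 5 to cluster 4, the families went opposite ways. CCNB1 rose from 0.364 and 0.303 to 2.38 and 2.36, a log2 fold change of 2.77 ± 0.10, CCNA2 rose by 2.60 ± 0.10 and CCNB2 by 1.31 ± 0.08. CCNE1 fell by 0.94, CCNE2 by 0.77, CCND3 by 0.59 and CCND1 by 0.55, and CCND2 was again not called (−0.02 ± 0.18). These 7 calls of 8 stand against 15.5% of all genes. CDK1 rose by 2.76, CKS2 by 2.52 and CDC25C, the phosphatase that activates CDK1, by 1.51, and 5 kinases and regulators were higher and 1 lower. UBE2C (2.64), CDC20 (2.17) and UBE2S (1.62), which serve the destruction of the B cyclins, were among 5 degradation genes that rose, and 0 fell. CCNB3 rose by 2.90 ± 0.14 and CCNL1 fell by 0.26, and no other of the 16 other cyclins passed.

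Between clusters 2 and 4 the main difference was in CCND3. It was at 0.823 and 0.783 in cluster 2 and at 0.479 and 0.464 in cluster 4, a log2 fold change of 0.78 ± 0.08 (edgeR adjusted p = 9.5e-08), and CCNB1 was higher by 0.27 ± 0.09 (adjusted p = 0.025). These were the 2 calls of 8, against 25.3% of all genes. CCNB1 was not called without the highest doublet scores (0.25; adjusted p = 0.0519). With the library as a block, CCND2 (0.29; adjusted p = 1.01e-07), CCNB2 (0.13; adjusted p = 0.00491) and CCNA2 (0.11; adjusted p = 0.0215) were called too, and so were 42.5% of all genes. MYOD1, the myoblast regulator, was at 6.72 in cluster 2 and 2.71 in cluster 4. Among the other genes, SKP2 rose by 0.88, CUL1, its partner, by 0.40 and CCNO by 1.46, while FBXO5 fell by 0.60 and PKMYT1 by 0.34. The other cyclins had 3 higher and 0 lower, the kinases and regulators 0 higher and 1 lower, and the degradation genes 2 higher and 1 lower.

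Clusters 6 and 11 held the most S phase RNA, at 43.2 and 44.8 UMIs per 10000 for the summed S phase list, against 6.68 in cluster 12. They differed from each other in 2 of 8 cyclins, against 15.7% of all genes. CCND2 was at 0.845 and 1.15 in cluster 6 and at 0.549 and 0.628 in cluster 11 (0.83 ± 0.19; edgeR adjusted p = 0.0031), and CCND3 at 0.918 and 1.08 against 0.639 and 0.580 (0.78 ± 0.09; adjusted p = 2.7e-07). CCNE2 (0.33 ± 0.15; adjusted p = 0.149) was called with the library as a block (adjusted p = 0.0224), as were 25.9% of all genes. MYOD1 was at 5.75 in cluster 6 and 1.35 in cluster 11. CCNO (1.30), SKP2 (0.87), UBE2C (0.60), CKS2 (0.38), CDK1 (0.32) and CUL1 (0.22) were higher too, and no gene of the 3 lists was lower.

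The comparisons of cluster 6 with 11 and of cluster 2 with 4 each set a cluster rich in MYOD1 against a poorer one, and the difference between them was tested, a test added after the values were seen. CCND3 differed by 0.78 in both, and their difference was 0.00 ± 0.12. None of the 8 cyclins passed without a block, against 6.19% of all genes, and 2 had an unadjusted p under 0.05. With the library as a block, CCND2 (a difference of 0.53), CCNB1 (−0.34) and CCNB2 (−0.24) passed (adjusted p = 2.04e-07, 0.00105 and 0.0205), as did 19% of all genes.

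The S phase clusters were set against the G2/M clusters, the richer in MYOD1 against the richer and the poorer against the poorer. MYOD1 still differed within both pairs, more so in the poorer one, so the pairs are not matched for its level. The phase names do not mark clean groups. The summed G2/M list was at 154 and 141 in clusters 2 and 4, and at 63.6 and 57.6 in clusters 6 and 11. The S phase list was still at 32.6 and 32.4 in clusters 2 and 4. Of their classed cells, 46.9% and 42.2% were high in both lists by the split given further on. Cluster 6 had higher E cyclins than cluster 2, CCNE2 by 1.55 ± 0.15 and CCNE1 by 1.47 ± 0.18, and lower CCNB1 (−2.23 ± 0.09), CCNB2 (−1.35 ± 0.08) and CCNA2 (−1.25 ± 0.09). CCND1 was higher by 0.62 ± 0.09 and CCND3 by 0.35 ± 0.08, the latter by 0.19 in replicate 1 alone. These 7 calls of 8 stand against 12.4% of all genes. CCND2 was not called (−0.12 ± 0.17) unless the library was a block (adjusted p = 0.0353), where 29.4% of all genes were called. CCNB3 was lower by 2.06, as 1 lower of 16 other cyclins and 0 higher. CDC25B, CKS2 and CDK1 were lower by 1.17, 1.13 and 1.07, with 3 kinases and regulators higher and 4 lower. CDC20, UBE2S and UBE2C were lower by 1.59, 1.37 and 1.09, with 1 degradation gene higher and 5 lower.

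Cluster 11 against cluster 4 gave the same signs for the E, A and B cyclins, CCND1 and CCND3, and all 8 cyclins passed, against 24.3% of all genes. CCNE2 and CCNE1 were higher by 1.39 ± 0.16 and 1.23 ± 0.21, CCND1 by 0.42 ± 0.09 and CCND3 by 0.34 ± 0.09. CCNB1 (−1.89 ± 0.10), CCNA2 (−1.28 ± 0.09), CCNB2 (−1.10 ± 0.09) and CCND2 (−0.65 ± 0.19) were lower. Of the kinases and regulators 2 were higher, CDC25A, the phosphatase that activates CDK2, by 1.13, and 4 were lower, CKS2 and CDK1 by 1.51 and 1.46. The degradation genes UBE2C, CDC20 and UBE2S were lower by 1.67, 1.33 and 1.30 (1 higher and 4 lower in all). Of the other cyclins 1 was higher and 4 were lower, with CCNB3 at −2.18, CCNG2 at −1.70 and CCNG1 at −0.26.

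Cells were next placed by the summed level of 53 G2/M genes and of 41 S phase genes, from which the 8 cyclins had been left out. The cells with at least 2000 UMIs (8952 and 8246 in the libraries) were ordered within each library and cut into 10 equal bins, of which bin 10 held the highest list levels. All values share the same cells and totals and are a description. The bins pool cells of different clusters, so they mix differences between clusters with those along a list. Along the G2/M list CCNB1 climbed from 0.070 in bin 1 to 3.43 in bin 10, CCNA2 from 0.030 to 1.70 and CCNB2 from 0.080 to 2.03. In bin 5 CCNB2 stood at 0.595, while CCNB1 was at 0.268 and CCNA2 at 0.210. The E cyclins rose and fell along the same list, with CCNE2 at 0.023 in bin 1, 0.169 in bin 6 and 0.051 in bin 10. CCNE1 was at 0.051, 0.116 and 0.038 in those bins.

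Along the S phase list the E cyclins were highest in bin 10. CCNE2 was at 0.035 in bin 1 and 0.275 in bin 10, and CCNE1 at 0.055 and 0.139. The rise lay in the later bins, as CCNE2 first fell to 0.024 in bin 3 and CCNE1 was still at 0.068 in bin 7. CCNE2 was at 0.058 in bin 6 and then climbed from bin to bin in both libraries. CCNB1 peaked at 1.88 in bin 7 and was at 0.744 in bin 10. CCND3 ran from 1.45 in bin 1 to 0.709 in bin 7 and 0.907 in bin 10 of the S phase list. Along the G2/M list it had its high of 1.46 in bin 3 and was at 0.640 in bin 10. CCND2 had a dip along the G2/M list, from 1.31 in bin 1 to 0.691 in bin 7 and back to 1.07 in bin 10. CCND1 was at 0.706 in bin 1, 0.623 in bin 9 and 0.414 in bin 10.

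**Figure D3:**
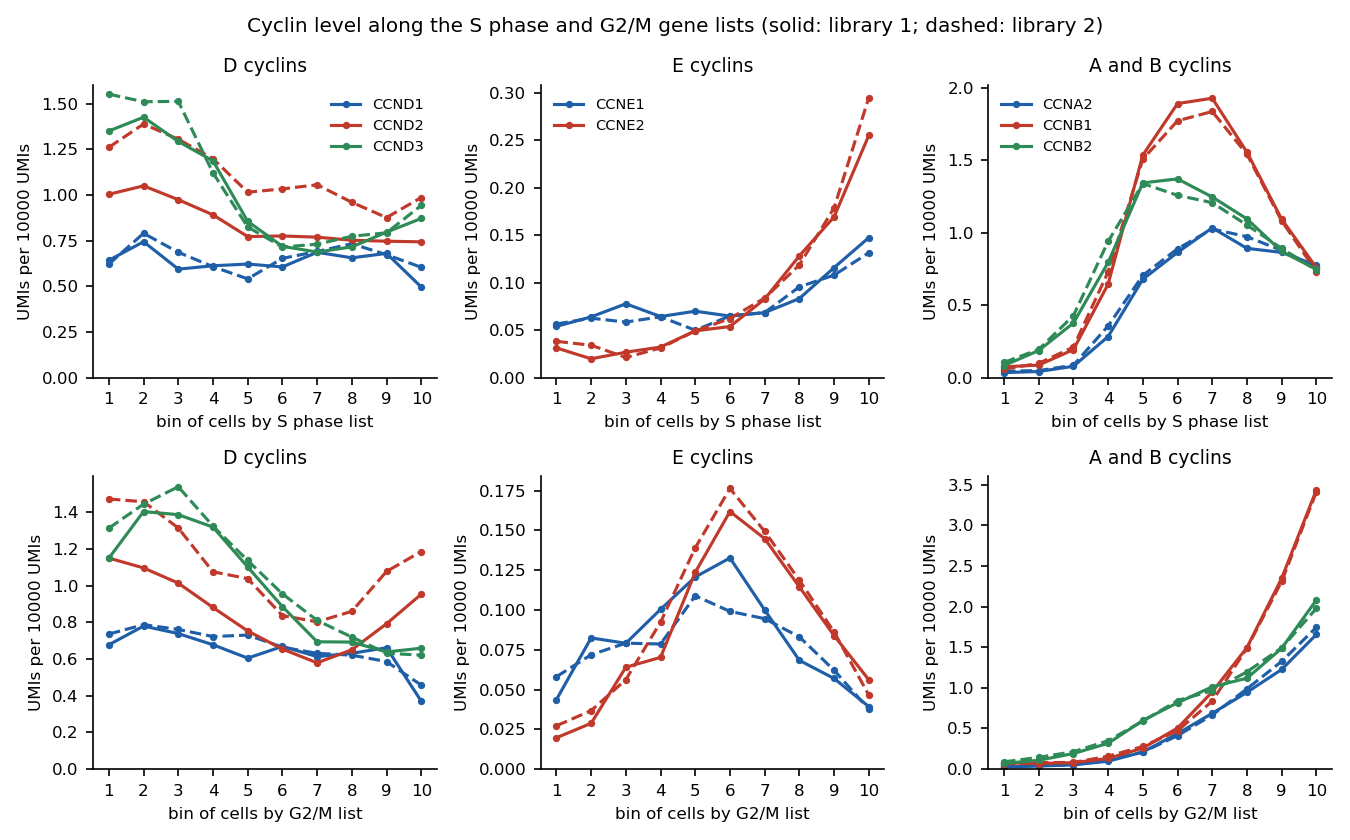
Cyclin level (y axis, UMIs per 10000 UMIs) in 10 bins of the cells (x axis) ordered from low to high by the summed S phase list (top row) or G2/M list (bottom row), for each library. CCNA2, CCNB1 and CCNB2 climb along the G2/M list to between 1.70 and 3.43, CCNE2 peaks at 0.169 in its bin 6, and CCND3 is lower in bin 10 than in bin 1 of both lists. The bins pool cells of different clusters.

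With both lists split at their upper tertile in each library, 8655 cells were high in neither, 2810 in S phase only, 2923 in both and 2810 in G2/M only. Between 6.01% and 10.2% of cells lay within 10% of a limit, so these are ranges and not cell types. CCNE2 was at 0.044 ± 0.002, 0.229 ± 0.021, 0.133 ± 0.007 and 0.040 ± 0.004 in these 4 classes. CCNB1 was at 0.208 ± 0.003, 0.428 ± 0.024, 1.87 ± 0.04 and 2.77 ± 0.08. CCNA2 had already reached 1.23 ± 0.08 in the cells high in both and 1.31 ± 0.03 in G2/M only. CCND3 was highest in the cells high in neither list (1.31 ± 0.07) and lowest in G2/M only (0.554 ± 0.039). CCND1 was at 0.690 ± 0.015 in neither, 0.731 ± 0.056 in S phase only, 0.573 ± 0.028 in both and 0.544 ± 0.021 in G2/M only. These classes pool clusters of unlike CCND3 level, so they mix differences between clusters with those between classes. From neither to S phase only, CCND3 went from 0.639 ± 0.059 to 0.777 ± 0.034 in cluster 5 and from 0.517 ± 0.124 to 0.682 ± 0.048 in cluster 11. In cluster 9 it hardly differed (0.706 ± 0.006 and 0.714 ± 0.004). In cluster 6 it was at 1.08 ± 0.09 and 1.02 ± 0.09, a difference within the SD. In cluster 10 the libraries disagreed, with 1.38 and 1.23 in replicate 1 and 1.44 and 1.45 in replicate 2.

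Within a single class the D cyclins still differed between clusters. Among cells high in neither list, CCND1 was highest in cluster 9 (1.36 ± 0.02). Of the clusters on the first order, clusters 8, 1, 3 and 12 had 0.474 ± 0.009, 0.735 ± 0.024, 0.862 ± 0.063 and 0.286 ± 0.011. Clusters 7 (0.832 ± 0.056) and 6 (0.749 ± 0.018) lay between clusters 3 and 1. CCND3 was at 1.69 ± 0.04, 1.71 ± 0.17 and 1.55 ± 0.12 in clusters 1, 3 and 12, against 0.538 ± 0.016 and 0.639 ± 0.059 in clusters 8 and 5. Clusters 10 and 6, which have no name, had 1.41 ± 0.04 and 1.08 ± 0.09 of CCND3. The shallow clusters 13 and 7 had 1.65 ± 0.07 and 1.45 ± 0.17, on 44 and 50 UMIs. Clusters 14, 9 and 11 were lower, at 0.847 ± 0.320, 0.706 ± 0.006 and 0.517 ± 0.124. The class high in neither list held 97.5%, 96.9%, 94.4% and 97.9% of the classed cells of clusters 8, 1, 3 and 12. For these clusters its values nearly repeat those over all cells and are no separate check. It held 56.2% of the classed cells of cluster 5 and 22.7% of those of cluster 9. The whole order of clusters in this class was not the same as over all cells.

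In cluster 9 CCND1 was high in all 4 classes, from 1.29 ± 0.01 in S phase only to 1.66 ± 0.05 in G2/M only. In cluster 3 the 104 cells high in G2/M only had 0.175 ± 0.004 of CCND1, against 0.862 ± 0.063 in the 1920 cells high in neither. In cluster 5 the 69 such cells had 0.244 ± 0.075, against 0.590 ± 0.093. These values in G2/M only rest on just 30 UMIs of CCND1 in cluster 3 and 20 in cluster 5, so the small SD in cluster 3 is no measure of precision. CCND3 kept its difference between clusters 2 and 4 within classes, at 0.639 ± 0.063 against 0.364 ± 0.016 in G2/M only and 0.958 ± 0.007 against 0.563 ± 0.011 in cells high in both.

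**Figure D4:**
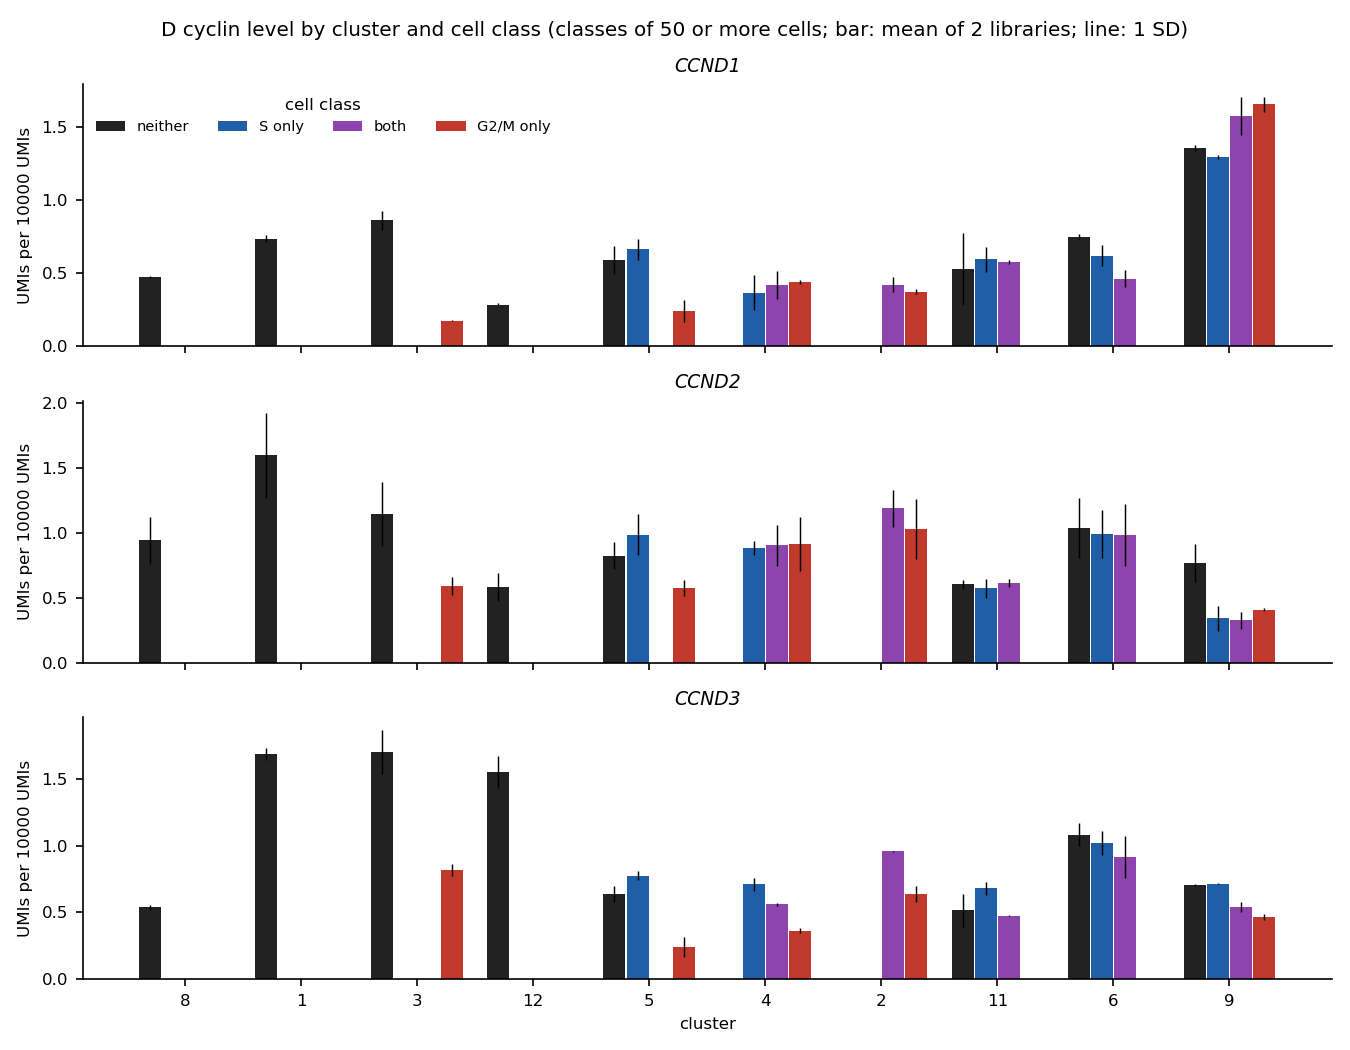
Level of CCND1, CCND2 and CCND3 (y axis, UMIs per 10000 UMIs) in 10 clusters (x axis) for cells high in neither list, in S phase only, in both or in G2/M only, as mean and SD of the 2 libraries. Classes under 50 cells, or under 20 in a library, are left blank. CCND1 in cluster 9 lies between 1.29 and 1.66 in all 4 classes, and CCND3 is high in the cells of clusters 1, 3 and 12 that are high in neither. Cluster 10, at 1.41 of CCND3 in that class, is not drawn.

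Shares of cells with a UMI were compared after each cell had been thinned to 5000 UMIs, which leaves out shallower cells, since a deeper cell is more likely to show any gene. CCNB1 was seen in 72.5% of the thinned cells of cluster 2 and 63.6% of those of cluster 4, and in 2.77% of those of cluster 12, whose cells had little G2/M RNA. Without thinning these shares were 97.5%, 91.6% and 13.4%, at medians of 17481, 18770 and 19113 UMIs per cell. CCND3 was seen in 51.0% and 49.3% of the cells of clusters 1 and 12, and in 17.9% of cluster 4. CCND1 was seen in 48.1% of cluster 9 and 11.1% of cluster 12. CCNE2 was seen in 11.6% of cluster 6 and 1.71% of cluster 1.

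At this depth, 93.8% of the cells of cluster 2 and 87.5% of cluster 4 had a UMI of CCNA2, CCNB1 or CCNB2, against 8.48% of cluster 12 and 16.1% of cluster 8. Any D cyclin was seen in 77.5% of cluster 1 and 52.4% of cluster 4, so the spread of the D family over clusters was the narrower. In cluster 2, 51.7% of cells had a D cyclin together with an A or B cyclin but no E cyclin. No cyclin of the 8 was seen in 34.2% of cluster 8 and 32.6% of cluster 12, and in 2.04% of cluster 2. A missing UMI in a thinned cell does not show that the RNA was absent.

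Pairs of cyclins in the same thinned cells are given as the observed share over the product of both shares, as a description. CCNA2 and CCNB1 were seen together 1.93 times as often as the product, CCNB1 and CCNB2 1.69 times, and CCNE1 and CCNE2 1.42 times on 33 cells. These ratios pool clusters whose shares differ widely, as CCNB1 was seen in 2.77% of cluster 12 and 72.5% of cluster 2. They therefore mix differences between clusters with pairing inside them, and the parts were not separated. CCND3 with CCNB1 gave 0.735 over all cells, but 1.02 within cluster 1 and 0.839 within cluster 4. The D cyclins were seen together slightly more often than the product, from 1.11 to 1.13 for their 3 pairs.

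Within cluster 3, CCND1 was seen in 24.1% of the 1280 thinned cells with a UMI of MYOG and in 30.9% of the 751 without. In replicate 1 the shares were 23.6% and 28.3%, and in replicate 2 24.6% and 34.1%. Cluster 1 went the same way, with 19.3% of 446 cells and 24.1% of 2015 cells. CCND3 was seen in 51.2% of cells with and 47.8% without MYOG in cluster 3, and in 56.5% and 49.8% in cluster 1. Shares per library are given only for CCND1 in cluster 3, so no opposite direction of CCND3 is claimed. The other cyclins are not given for this split. Neither are the other clusters, the second cluster named myocytes among them. Cells of one library are not replicates, so these shares carry no test.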

How the data were processed

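The authors deposited UMI counts per gene and cell, made with Cell Ranger 3.0.2 on ARS-UCD1.2, with 2 libraries combined after thinning to equal mapped reads per cell. A score the authors deposited, the average of each gene in each of 15 clusters on a common total of 14889, fixed the cluster of all 19096 cells, since 0 of 252240 recomputed averages differed. The deposited fold changes and p-values were not used. The library of a cell was read from its barcode suffix.

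UMIs were summed per library and cluster. All 30 sums entered 1 fit in edgeR 4.0.16 (R 4.3.3) with TMM and filterByExpr, and the 9 contrasts were read from it. Library pairs the sums (correlations of their deviations from 0.396 to 0.52), and the block is printed where it changed a call. Counts were simulated without this pairing. Of 200 genes changed 3-fold, 78.5% were recovered for cluster 12 against 3 (11946 genes) and 84.5% for 6 against 11 (12028 genes). Of the calls, 3.09% and 6.11% were false. Smaller changes, as most of those called here, were not simulated. Scrublet's automatic thresholds marked 1 cell, so doublets were kept and, chosen after this was seen, the highest 8% of scores (1528 cells) were left out in an alternative. Thinning drew 5000 UMIs per cell without replacement. Log2 levels for likeness used a pseudocount of 0.01 UMIs per 10000.

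Other alternatives were DESeq2 1.42.0, RLE factors, no scaling, no filter, only the 4 sums compared, cells of 2000 UMIs or more, assignment by profile, each library alone, a thinning to 2000 UMIs and a split at the upper quartile. Genes named beyond the 8 cyclins are, per list and comparison, at most the 3 called with the largest change in both libraries, and the 3 most like each cyclin, of which 1 is not reported here. Of 21 other cyclins, 19 were found. The cyclins, lists and tests were chosen with earlier results of these data known. Analyses used Python 3.11.15 and scanpy 1.11.5.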

Additional observations from a re-analysis of the deposited data

Results flagged for a closer look

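The comparison of cluster 6 with cluster 11 and that of cluster 2 with cluster 4 differed in 3 cyclins by a test of the difference itself with the library as a block, a test that 19% of all genes passed. CCND2 was higher by 0.83 on the log2 scale in cluster 6 than in 11 and by 0.29 in cluster 2 than in 4 (adjusted p = 2.04e-07 for the difference, edgeR's quasi-likelihood test). CCNB1 was at −0.07 and 0.27 (adjusted p = 0.00105) and CCNB2 at −0.11 and 0.13 (adjusted p = 0.0205). Without the block none of the 3 passed (adjusted p = 0.275, 0.155 and 0.287). With 2 libraries no search for outlying samples was possible.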

How the results depend on the processing

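Of the 48 log2 fold changes called among 72, 42 were called in the same direction in all 9 tested settings, and none of the 48 changed sign in either library alone. The count of cyclins called moved by over 1.5 times in 5 cases. It was 2 in place of 4 for cluster 3 against 1 in a fit of only the 4 sums and in DESeq2, which called 40.2% and 38.6% of all genes. For cluster 2 against 4 it was 5 in place of 2 with the library as a replicate block (42.5% of all genes), and 1 without the highest doublet scores (25.2%). For cluster 6 against 11 it was 5 in place of 2 with cells assigned by profile (15.2% of all genes), where CCNB1 (−0.54), CCNB2 (−0.31) and CCNE2 (0.46) were added. The library number pairs the sums, and the block changed no call beyond those given above. The changes of sign were all of log2 fold changes that were not called and, except for CCNA2 in cluster 6 against 11 with cells assigned by profile (−0.155), under 0.05 in size. For CCNE2 in 1 against 8 they were −0.015 with RLE factors and with DESeq2, −0.008 without scaling and −0.029 without the highest doublet scores. In 3 against 1, RLE factors gave −0.03 (CCND3), −0.018 (CCNB1) and −0.023 (CCNB2), DESeq2 −0.03, −0.018 and −0.024, and no scaling −0.019, −0.007 and −0.012, with CCND3 at −0.003 without the highest doublet scores. For CCND3 in 12 against 3 they were 0.042 with RLE factors and DESeq2, 0.003 with only the 4 sums and 0.015 without cells under 2000 UMIs. For CCND2 in 4 against 5 they were 0.015 with RLE factors and DESeq2, 0.044 without scaling, 0.016 with only the 4 sums and 0.007 with cells assigned by profile. No scaling also called CCNA2 in 12 against 3 (−0.45). The causes were not tested. Counts of the E cyclins limit their comparisons, and with 1 animal no spread between animals was measured.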

Other observations

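CCND2 stood apart from the other 7 cyclins in how its libraries compared. Its level over all cells was 0.836 UMIs per 10000 UMIs in replicate 1 and 1.09 in replicate 2, a ratio of 1.31, and it was higher in replicate 2 in 13 of 15 clusters. Clusters 14 and 15 were the exceptions. The ratios of the other cyclins lay between 0.941 (CCNE1) and 1.06 (CCNE2). Among 10062 genes with at least 500 UMIs in both libraries together, 3.64% differed more between the libraries than CCND2 did. Both libraries were prepared from the same cells, and the source of the difference was not tested. It widens the SE of every log2 fold change of CCND2 without a block, such as 0.17 between clusters 2 and 4, where CCND3 had 0.08.

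CCNO, a cyclin known from multiciliated cells, was outside the 8 cyclins and differed between clusters in 6 comparisons. It was higher in cluster 1 than in 8 (log2 fold change 2.00), in 3 than in 1 (1.07), in 2 than in 4 (1.46), in 6 than in 11 (1.30) and in 5 than in 8 (1.85), and lower in 12 than in 3 (−0.96), each called by edgeR. SKP2 was higher in the first 4 of these comparisons too (2.09, 0.45, 0.88 and 0.87). Setting SKP2 beside CCNO was chosen after the values were seen. Its values for cluster 5 against 8 and 12 against 3 are not given, so no absence of a change is shown there.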
